A study of Mus musculus with 3 samples.

Results

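Osteocalcin, the protein that is most specific to bone-forming cells, is encoded in the mouse by 3 neighbouring gene copies, Bglap, Bglap2 and Bglap3. They were found by their symbols in the deposited gene list, where each symbol stood on 1 line, and they are 3 of 32245 gene symbols. Their RNA was measured in single-cell 3′ libraries (10x Genomics v3) of sorted bone marrow stromal cells from C57BL/6 mice aged 6 to 8 weeks. There were 3 libraries and 1 per genotype, with no treatment: WT, R76W and D130. The R76W and D130 mice are known to carry mutant connexin 43, the protein that forms most gap junctions and hemichannels of osteocytes, expressed as a transgene from the Dmp1 promoter, which is active in osteocytes and late osteoblasts. R76W inhibits gap junctions, and D130, read here as the deletion of residues 130 to 136, blocks both gap junctions and hemichannels. These mice keep their endogenous connexin 43 gene, so the libraries do not compare cells with and without connexin 43. Whether several mice were pooled per library is not stated. A single library per genotype allows no test of genotype, and every interval below is a 95% interval for counting error only, which leaves out the spread between mice.

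Osteocalcin is a small secreted protein whose glutamate residues are carboxylated by a vitamin K dependent enzyme, which lets it bind calcium in bone mineral. Osteoblasts make it late in their maturation, after type I collagen and bone sialoprotein, and its transcription is known to be driven by the bone factor Runx2 together with the vitamin D receptor and other factors. Bglap and Bglap2 are the copies known to be expressed in bone, whereas Bglap3 was first described as a related gene with transcripts in other tissues.

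In the GENCODE annotation of GRCm38 (mm10) all 3 copies lie on the minus strand of chromosome 3. Bglap3 (ENSMUSG00000074489) spans chr3:88368616-88372743, Bglap2 (ENSMUSG00000074486) spans chr3:88377736-88378699 and Bglap (ENSMUSG00000074483) spans chr3:88383501-88384464. Bglap3 and Bglap2 are 4992 bp apart, Bglap2 and Bglap are 4801 bp apart, and the nearest end of Pmf1, an unrelated gene for a kinetochore protein on the same strand, lies 9678 bp from Bglap. The first transcripts are 440 bases (Bglap), 471 bases (Bglap2) and 717 bases (Bglap3), each with 4 exons and a coding sequence of 288 bases. The 3 coding sequences are shown because the split of the counts between the copies rests on how few bases separate them. They were read from the GENCODE transcripts. Capitals mark the 13 positions at which the copies differ in Bglap and Bglap3, and the 4 positions at which Bglap2 differs from Bglap.
Bglap: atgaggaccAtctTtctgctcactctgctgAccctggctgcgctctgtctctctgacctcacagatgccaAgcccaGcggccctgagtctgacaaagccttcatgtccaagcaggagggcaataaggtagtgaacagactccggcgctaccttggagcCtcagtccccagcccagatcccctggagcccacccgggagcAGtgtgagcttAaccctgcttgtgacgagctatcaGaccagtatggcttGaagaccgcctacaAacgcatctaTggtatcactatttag
Bglap2: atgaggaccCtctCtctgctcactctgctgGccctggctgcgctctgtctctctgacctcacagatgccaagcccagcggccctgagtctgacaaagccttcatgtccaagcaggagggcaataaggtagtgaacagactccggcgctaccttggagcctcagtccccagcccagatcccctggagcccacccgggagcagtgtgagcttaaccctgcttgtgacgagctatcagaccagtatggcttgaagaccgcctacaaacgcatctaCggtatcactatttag
Bglap3: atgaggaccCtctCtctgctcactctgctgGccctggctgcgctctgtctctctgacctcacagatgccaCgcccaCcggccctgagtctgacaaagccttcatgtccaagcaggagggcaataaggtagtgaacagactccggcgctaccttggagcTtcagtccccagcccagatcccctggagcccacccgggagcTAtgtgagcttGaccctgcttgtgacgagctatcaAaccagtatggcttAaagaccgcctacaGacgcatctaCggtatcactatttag
Counted from 1 at the A of the start codon, with the Bglap base first, Bglap2 carries A10C, T14C, A31G and T273C, and Bglap3 carries all 4 of these as well. Coding identity was 98.6% between Bglap and Bglap2, 95.5% between Bglap and Bglap3 and 96.9% between Bglap2 and Bglap3. A 3′ library reads mostly the end of a transcript, and in the last exon of 267 bases T273C, 149 bases from the 3′ end, is the only base that separates Bglap2 from Bglap. Bglap3 differs from Bglap at 10 bases of that exon. The 134 bases after the stop codon are identical in Bglap and Bglap2, and Bglap3 differs there at 2 bases. Of all windows of 90 bases in the transcript, 60.4% of those in Bglap, 63.4% of those in Bglap2 and 4.78% of those in Bglap3 were found unchanged in another copy. How reads that match more than 1 copy were treated is not given in the sources used here, so the split between Bglap and Bglap2 is uncertain. The sum of the 3 copies, called osteocalcin below, is therefore given first throughout. If such reads were left out, the sum would be too low as well. Bglap and Bglap2 would then lose more than Bglap3, so the share of Bglap3 carries the same limit.

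The promoters are shown because the copies varied together from cell to cell. RefSeq windows (GRCm38.p6) were given for Bglap and Bglap3, and the 250 bases before the start are printed, 5′ to 3′ on the gene's strand. For Bglap3, which has several annotated starts, the most upstream one is shown. Capitals mark matches, on either strand, to ACCACA (the Runx core), CANNTG (the E box), TATAAA (the TATA box) and CCAAT (the CCAAT box).
Bglap, chr3:88384467-88384716: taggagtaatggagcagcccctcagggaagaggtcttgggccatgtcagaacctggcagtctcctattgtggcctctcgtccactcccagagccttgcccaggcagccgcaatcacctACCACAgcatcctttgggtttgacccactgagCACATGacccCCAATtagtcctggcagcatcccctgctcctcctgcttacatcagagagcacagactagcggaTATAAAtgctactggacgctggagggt
Bglap3, chr3:88372742-88372991: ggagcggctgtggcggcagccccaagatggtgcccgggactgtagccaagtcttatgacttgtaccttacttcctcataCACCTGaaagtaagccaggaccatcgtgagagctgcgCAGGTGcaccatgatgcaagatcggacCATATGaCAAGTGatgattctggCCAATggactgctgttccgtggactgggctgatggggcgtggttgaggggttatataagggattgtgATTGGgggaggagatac
The Bglap window holds ACCACA at 132 to 127 bases before the start, CANNTG at 100 to 95, CCAAT at 90 to 86 and TATAAA at 27 to 22. The Bglap3 window holds 4 matches to CANNTG and 2 to CCAAT. Among 32851 windows of this length, 14.0% hold ACCACA, 66.2% hold CANNTG, 12.4% hold TATAAA and 33.8% hold CCAAT, so each is common and a match is no more than a description.

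The libraries held 7352 barcodes (WT), 3317 (R76W) and 4245 (D130), with 81837778, 29558251 and 46897983 UMIs (unique molecular identifiers, each standing for 1 captured RNA molecule). Of these, 4371, 1790 and 2175 cells passed the limits of 500 genes or more, 1000 UMIs or more and no more than 10% mitochondrial UMIs. The libraries shared 4 to 8 barcodes in each pair. Osteoblasts were defined as cells with at least 100 Col1a1 UMIs (type I collagen) and at least 5 Ibsp UMIs (bone sialoprotein) per 10000, which gave 134 WT, 93 R76W and 136 D130 cells, with median totals of 22900, 29277 and 31796 UMIs. Of the 10 osteoblast markers, the gate genes Col1a1 and Ibsp have a UMI in every one of these cells by definition. Col1a2 also had one in every cell, and Sp7, Ifitm5, Alpl, Cgref1 and Car3 had one in 89.2% to 98.5% of them, depending on gene and library. Phex had one in 77.6% (WT), 71.0% (R76W) and 72.1% (D130) of the cells, and Dmp1 in 51.5%, 44.1% and 54.4%. Of the 4 osteocyte markers, Sost and Fgf23 had 0 UMIs, while Dmp1 had 162, 173 and 132 CPM (UMIs per 1000000) and Mepe had 31 UMIs over all osteoblasts. RNA of blood cells was highest in the WT osteoblasts. Their 14 erythroid markers without hemoglobin summed per 10000 UMIs to 12.3 (WT), 2.20 (R76W) and 1.79 (D130), with medians over cells of 1.35, 0.909 and 1.24, hemoglobin to 37.2, 2.28 and 0.921, and 9 neutrophil markers to 17.8, 0.238 and 0.695, of which 1 WT cell reached 1501. The 4 chondrocyte markers summed to 4.68, 9.001 and 3.22.

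Osteocalcin RNA in osteoblasts was highest in the R76W and lowest in the D130 library. Summed over osteoblasts, the 3 copies gave 940 UMIs per 10000 in WT (937 to 944, 323253 UMIs), 1183 in R76W (1179 to 1187, 342580 UMIs) and 391 in D130 (389 to 393, 170900 UMIs). D130 was therefore 2.41-fold lower than WT (log2 −1.27) and 3.03-fold lower than R76W (log2 −1.60), and R76W was 1.26 times WT (log2 0.33). Of 10467 genes measured in osteoblasts, 7.73% were at least 1.5 times lower in D130 than in WT and 5.28% in D130 than in R76W, and the medians of all genes were log2 0.16 and 0.23. The R76W to WT ratio stayed under 1.5 times, a size that 7.41% of genes reached or passed. The median mitochondrial share of the osteoblasts was 2.21% (WT), 2.94% (R76W) and 3.51% (D130), and over cells of at most 5% the D130 to WT ratio was log2 −1.21. Without the 14 WT, 9 R76W and 2 D130 osteoblasts that also passed a gate of another class, the levels were 1001, 1201 and 397 and the D130 to WT ratio was log2 −1.33.

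Single osteoblasts covered nearly the whole range in every library, and the libraries differed in how many cells stood at the top of it. Per cell, osteocalcin had a lowest value, median and highest value of 0, 624 and 3400 UMIs per 10000 in WT, 0.351, 706 and 3529 in R76W, and 0, 132 and 3342 in D130. The top cell thus gave 34.0%, 35.3% and 33.4% of its UMIs to osteocalcin in WT, R76W and D130. Ranges overlapped fully, while the D130 median lay far below the others. At least 1000 UMIs per 10000 were reached by 46 of 134 WT osteoblasts (34.3%, exact Clopper-Pearson interval 26.3 to 43.0), 38 of 93 R76W osteoblasts (40.9%, 30.8 to 51.5) and 10 of 136 D130 osteoblasts (7.35%, 3.58 to 13.1). The cells below 10 UMIs per 10000 were a like share in each library: 19 in WT (14.2%), 12 in R76W (12.9%) and 17 in D130 (12.5%). Cells from 10 to 100 UMIs per 10000 were more frequent in D130, with 47 cells (34.6%) beside 22 in WT (16.4%) and 7 in R76W (7.53%). Of the osteoblasts' osteocalcin UMIs, the cells at or above 1000 held 73.4% (WT), 85.1% (R76W) and 36.1% (D130). Fewer highly expressing cells among those caught and less RNA in each cell cannot be told apart for the library totals. Depth also differed, and over osteoblasts of 10000 to 50000 UMIs alone the D130 to WT ratio was log2 −1.53.

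**Figure D1:**
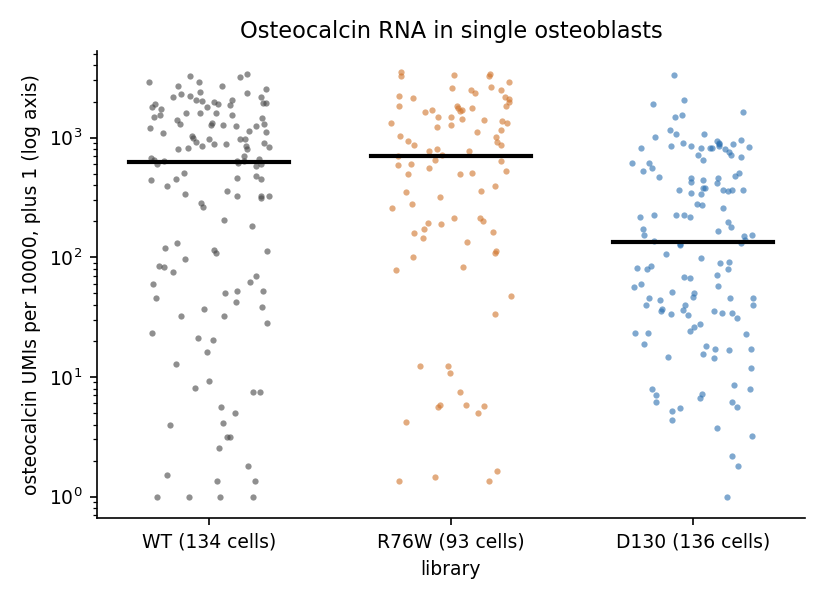
Osteocalcin (Bglap, Bglap2 and Bglap3 summed) in single osteoblasts, as UMIs per 10000 plus 1 on a log axis, by library. Each point is 1 cell and each bar is the median, which stood at 624 in WT, 706 in R76W and 132 in D130.

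Bglap was the most abundant copy, Bglap2 came next and Bglap3 was rare, in each library. These are 3′ UMI counts, which do not scale with transcript length, so the copies are compared without a length correction. Bglap had 684 UMIs per 10000 in WT, 825 in R76W and 278 in D130 osteoblasts. Bglap2 had 242, 353 and 106 in the same order. Bglap and Bglap2 were both highest in R76W and lowest in D130. Bglap3 had another order, with 14.5 in WT (14.1 to 14.9), 4.75 in R76W (4.51 to 5.01) and 7.24 in D130 (6.990 to 7.497). R76W thus held 3.05-fold less Bglap3 than WT (log2 −1.61) while it held 1.21 times as much Bglap and 1.46 times as much Bglap2. Among all measured genes, 13.6% were at least 1.5 times lower in R76W than in WT. D130 was 2.46-fold lower than WT for Bglap, 2.29-fold lower for Bglap2 and 2.00-fold lower for Bglap3.

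The share of Bglap3 was lowest in R76W, with some overlap of single cells. Over all osteoblasts it was 1.54% of osteocalcin UMIs in WT (1.4996 to 1.5849), 0.402% in R76W (0.381 to 0.424) and 1.85% in D130 (1.79 to 1.92). Among osteoblasts with at least 100 osteocalcin UMIs (99 WT, 65 R76W and 95 D130 cells), the lowest, median and highest cell had 0%, 1.44% and 4.67% in WT, 0%, 0.402% and 1.19% in R76W, and 0%, 1.80% and 8.11% in D130. All 65 R76W cells lay under the lower quartile of the WT cells, 1.23%. Above the highest R76W cell lay 77 of 99 WT cells and 84 of 95 D130 cells. The low share in R76W was seen at high osteocalcin as well as at middle levels, with 0.400% in cells at or above 1000 UMIs per 10000 and 0.412% in cells from 100 to 1000. WT had 1.58% and 1.43% in these ranges, and D130 had 1.91% and 1.80%. Cells of 1 library share their mouse or mice and their sequencing, so these counts of cells describe 3 libraries, and whether a difference between mice, reads or genotypes moved the share was not tested.

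Bglap2 took a steadier share. Of Bglap and Bglap2 UMIs together it was 26.2% in WT (26.002 to 26.308), 29.98% in R76W (29.8 to 30.1) and 27.5% in D130 (27.3 to 27.7). Per cell the medians were 25.7%, 30.2% and 28.4%, and the ranges, 11.8% to 39.2% (WT), 8.67% to 48.5% (R76W) and 6.72% to 61.8% (D130), overlapped almost fully. In osteoblasts with under 10 osteocalcin UMIs per 10000 the share was higher, at 39.0% in WT (26.5 to 52.6), 50.9% in R76W (41.0 to 60.8) and 36.4% in D130 (29.7 to 43.6). Those shares rest on 60, 107 and 203 osteocalcin UMIs. The LepR+ stromal share of Bglap2, given further on, was 27.8%, 36.0% and 28.5%.

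**Figure D2:**
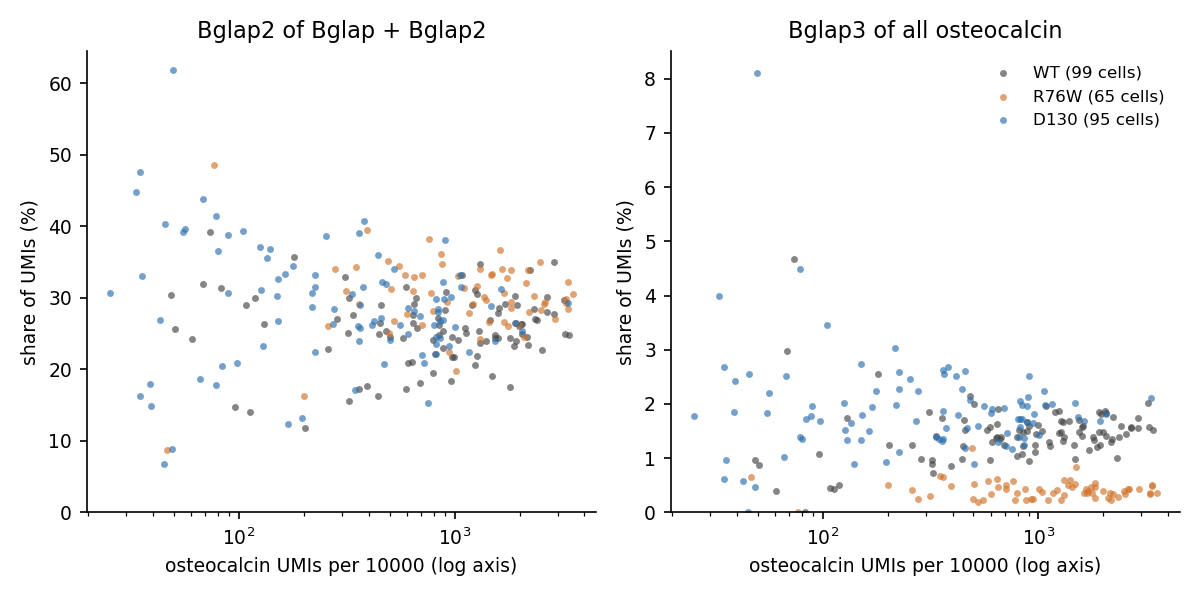
Share of Bglap2 among Bglap and Bglap2 UMIs (left) and of Bglap3 among all osteocalcin UMIs (right), in percent, against osteocalcin UMIs per 10000 on a log axis. Each point is 1 osteoblast with at least 100 osteocalcin UMIs, and in the right panel the 65 R76W cells lie at or below 1.19%.

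The copies were detected together. Over osteoblasts, Spearman's rho between Bglap and Bglap2 levels was 0.98 in WT, 0.98 in R76W and 0.96 in D130. Between Bglap and Bglap3 it was 0.97, 0.93 and 0.94. These values describe cells of the same library, and the part of reads that match more than 1 copy was not tested. No osteoblast in any library had a Bglap3 UMI without a Bglap UMI, whereas 23 WT, 24 R76W and 21 D130 cells had Bglap without Bglap3. Pmf1, the neighbour beyond Bglap, was scarce at 20.9 CPM in WT (16.4 to 26.4), 10.4 in R76W (6.99 to 14.8) and 6.86 in D130 (4.63 to 9.79). Its log2 ratios to WT were −0.95 for R76W and −1.48 for D130.

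Outside the osteoblasts, osteocalcin was far lower in the stromal, erythroid and myeloid classes, and it was above 0 in each of them. Osteoblasts held 91.8% of the osteocalcin UMIs of the cells used in WT, 98.5% in R76W and 98.4% in D130. Cells that passed no gate had 184 UMIs per 10000 in WT (33 cells), 204 in R76W (16 cells) and 13.3 in D130 (46 cells). In each library 1 cell gave much of this, 50.1%, 98.8% and 52.6%. Osteoprogenitor cells, set by Wif1, Alpl, Cthrc1 and Limch1, had 74.2 UMIs per 10000 in WT (288 cells), 8.01 in R76W (103 cells) and 6.64 in D130 (144 cells). In WT 1 cell gave 62.4% of that value, in R76W 1 cell gave 34.1%, and without the top cell of each library the levels were 28.3, 5.40 and 4.55. At least 100 osteocalcin UMIs per 10000 were found in 5 WT, 3 R76W and 1 D130 osteoprogenitor cells, so leaving out 1 cell does not remove all of these in WT and R76W. LepR+ stromal cells, the leptin receptor bearing cells that make up most of the marrow stroma, had 0.702 UMIs per 10000 in WT (0.642 to 0.766, 1224 cells), 0.430 in R76W (0.388 to 0.475, 1055 cells) and 0.289 in D130 (0.253 to 0.328, 951 cells). Those levels are 0.0746%, 0.0363% and 0.0739% of the osteoblast level of the same library.

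Blood cells, which are not known to make osteocalcin, served as the measure of RNA from other cells. Erythroid cells had 0.845 UMIs per 10000 in WT (2451 cells), 0.212 in R76W (373 cells) and 0.199 in D130 (630 cells). A single WT erythroid cell gave 3667 of the 5089 UMIs, and the WT level without it was 0.236. Myeloid cells had 0.205 in WT (0.117 to 0.334, 41 cells), 0.120 in R76W (0.0518 to 0.236, 43 cells) and 0.209 in D130 (0.156 to 0.275, 100 cells). Without the top cell of each class, LepR+ stromal cells stood at 0.584, 0.385 and 0.278, above the erythroid 0.236, 0.159 and 0.194 in every library. That order depended on the scale, since erythroid cells were deeper (median 25310, 32040 and 34412.5 UMIs) than LepR+ cells (5883.5, 7968 and 8302). Counted per cell and without the top cell, LepR+ cells had 0.343, 0.325 and 0.240 osteocalcin UMIs and erythroid cells 0.580, 0.492 and 0.684. A UMI was seen in 16.8%, 22.5% and 18.9% of LepR+ cells and in 28.8%, 39.7% and 47.9% of erythroid cells. Thinned to 1000 UMIs, the shares were 5.29%, 3.96% and 3.42% for LepR+ cells and 3.22%, 2.70% and 2.53% for erythroid cells. LepR+ cells thus lay below erythroid cells on the unthinned share and above them on the thinned one, and no expression of osteocalcin in LepR+ cells is read from these values.

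The shares of the copies were also read outside the osteoblasts. In LepR+ cells Bglap2 took 27.8% in WT (23.9 to 32.0), 36.0% in R76W (31.1 to 41.1) and 28.5% in D130 (22.8 to 34.7). The R76W interval lay above the 29.98% of the R76W osteoblasts. In R76W osteoprogenitors, where 1 cell gave 34.1% of the osteocalcin UMIs, the share was 41.5% (38.2 to 44.9), against 25.9% in WT (25.2 to 26.6) and 28.9% in D130 (26.3 to 31.7). In R76W erythroid cells it was 28.6% (23.0 to 34.7), an interval that holds the osteoblast value. Bglap3 took 2.09% in R76W LepR+ cells (0.906 to 4.07), which rests on 8 UMIs, and this interval also lay above the 0.402% of the R76W osteoblasts. In R76W osteoprogenitors it took 0.711% (0.261 to 1.54), which holds that value. In erythroid cells of R76W, 0 of 245 osteocalcin UMIs were Bglap3, which allows a share of up to 1.49%. In LepR+ cells Bglap3 took 2.57% in WT (1.37 to 4.35) and 0.844% in D130 (0.102 to 3.01, 2 UMIs), so R76W was not the lowest there. Osteoprogenitors had 1.40% in WT and 1.31% in D130. Erythroid cells had 1.97% in WT, where 1 cell gave 72.1% of the osteocalcin UMIs, and 1.81% in D130 (0.786 to 3.54).

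**Figure D3:**
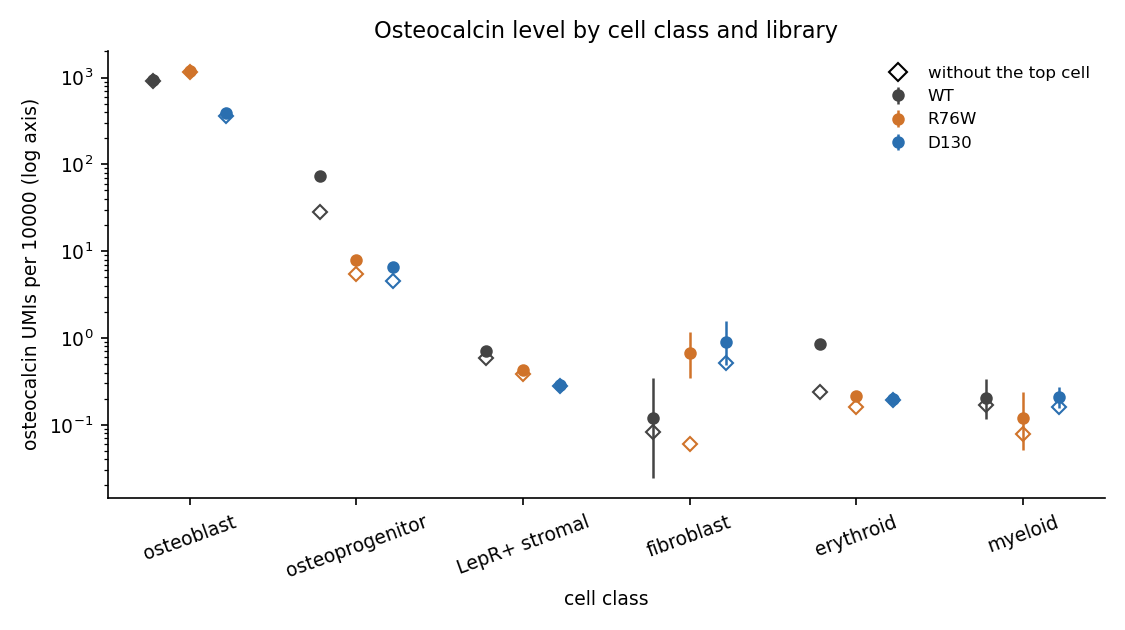
Osteocalcin UMIs per 10000 (log axis) by cell class and library, summed over the cells of the class. Filled points carry 95% Poisson intervals for counting error and open diamonds leave out the cell with most osteocalcin UMIs, which lowers WT erythroid cells from 0.845 to 0.236.

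Some cells with much osteocalcin lay outside the gate. At least 100 UMIs per 10000 were found in 17 WT, 4 R76W and 3 D130 cells that missed the osteoblast limits, of which 11, 3 and 3 had too little Ibsp. They held 7.24%, 1.19% and 0.480% of the osteocalcin UMIs of the cells used. Cells with enough Col1a1 but too little Ibsp numbered 21, 6 and 16 and had summed levels of 747, 393 and 38.9 UMIs per 10000. Cells with enough Ibsp but too little Col1a1 numbered 1530, 1118 and 924, with levels of 1.15, 0.702 and 0.974. Osteocalcin was therefore also present in cells with type I collagen below the Ibsp limit. Their summed levels rest on 21, 6 and 16 cells, and neither intervals nor levels without the top cell were computed for them. Single cells can carry most of such a sum, as 1 cell gave 98.8% of the osteocalcin UMIs of the unassigned R76W cells. The order of the libraries is therefore not read as a difference between them.

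Within the osteoblasts, other bone genes varied with osteocalcin in opposite directions. Spearman's rho with the osteocalcin level was computed over the osteoblasts of each library for 2686 genes with a UMI in at least 50% of them in every library, and averaged over the 3 libraries. These are descriptions over cells of shared libraries. The median gene had a rho of −0.08 and 5% of genes lay above 0.13, and osteocalcin itself rose with the total UMIs of a cell (rho 0.32 in WT, 0.43 in R76W and 0.25 in D130). Sparc, the abundant collagen-binding matrix protein osteonectin, was the most alike with a mean rho of 0.46 (0.42 in WT, 0.44 in R76W and 0.51 in D130). It was followed by the BMP antagonist Nbl1 (0.45), the small proteoglycan Dcn (decorin, 0.44), the lipase Lipc (0.44), the protease-like Prss35 (0.43), the matrix glycoprotein Thbs1 (0.42), Tsc22d1 (0.41) and the small heat shock protein Cryab (0.40). The most opposite was Serpine2, an inhibitor of serine proteases, with a mean rho of −0.64 (−0.68 in WT, −0.67 in R76W and −0.57 in D130). Next came Ibsp (−0.44), which is also a gate gene, Colec12 (−0.43), the Wnt inhibitor Wif1 (−0.43), the protease Adamts9 (−0.42), Runx2 (−0.42), the RNA-binding Hnrnpa2b1 (−0.41) and the ubiquitin ligase Nedd4 (−0.40). Each of these 16 genes had the same sign in all 3 libraries. Since osteocalcin took up to 35.3% of a cell's UMIs, other genes were also scaled to UMIs without osteocalcin, which moved Sparc to 0.59, Runx2 to −0.35, Ibsp to −0.35 and Serpine2 to −0.61.

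**Figure D4:**
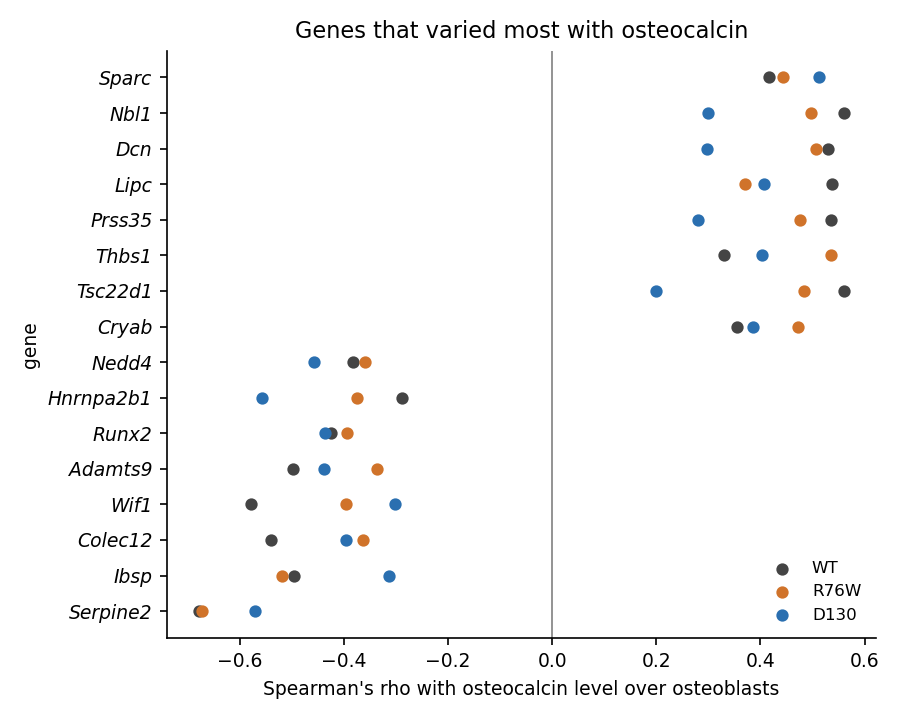
Spearman's rho between the level of each gene and osteocalcin over osteoblasts, with 1 point per library, for the 8 genes with the highest and the 8 with the lowest mean rho among 2686 genes. Serpine2 lies lowest in every library (−0.68, −0.67 and −0.57), and Sparc has the highest mean, 0.46.

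The size of these changes was read from osteoblasts split by their osteocalcin, below 10, 10 to 100, 100 to 1000 and at least 1000 UMIs per 10000, with other genes given per 10000 UMIs other than osteocalcin. Ibsp went from 198 in the lowest range to 34.5 in the highest in WT, from 149 to 41.8 in R76W and from 131 to 33.4 in D130. Serpine2 went from 25.6 to 1.14, from 14.9 to 1.46 and from 7.74 to 1.56. Runx2, the factor that opens the osteoblast programme, went from 10.9 to 4.95, from 10.9 to 4.85 and from 17.9 to 6.49. Between the end ranges all 3 genes were thus higher where osteocalcin was lowest, in every library, although Ibsp was higher in the highest than in the third range in R76W (41.8 and 33.4) and in D130 (33.4 and 29.5). The median over cells of the summed LepR+ stromal markers also differed between the end ranges, with 1.01 and 0 in WT, 0.645 and 0.223 in R76W, and 1.36 and 0.637 in D130, and its part in these courses was not tested. Sparc went the other way, from 277 to 562 in WT, from 266 to 487 in R76W and, in D130, from 234 to 538. Dcn went from 18.1 to 56.1, 14.7 to 53.7 and 30.8 to 52.1. Col1a1, the other gate gene, went from 754 to 1236 in WT, from 740 to 1201 in R76W and, in D130, from 554 to 1107. Sp7, the factor that acts after Runx2, stayed between 1.63 and 2.12 in all 12 combinations of library and range.

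A few genes showed still steeper contrasts and were chosen after their values were seen. Mmp13, the collagenase of bone remodelling, went from 13.9 in the lowest to 0.00964 in the highest range in WT, from 12.3 to 0.410 in R76W and from 9.99 to 0 in D130. The WT value is 1 UMI, and the upper limit of the 0 in D130 is 0.117. Over all ranges, Mmp13 had a UMI in 14.9% (WT), 28.0% (R76W) and 13.2% (D130) of osteoblasts, and the lowest range held 19, 12 and 17 cells. Tnc, the matrix protein tenascin C, went from 17.8 to 0.482, from 7.19 to 0.520 and from 12.6 to 0.413. Col2a1, the cartilage collagen, was in the opposite direction, with 0.0977 in the lowest and 8.85 in the highest range in WT, 0.338 and 17.0 in R76W, and 0.729 and 6.96 in D130. The other chondrocyte markers stayed near 0 in the highest range, where Acan, Matn3 and Col9a1 each had 0 UMIs in WT (upper limit 0.0356), 1 UMI in R76W (0.00788 per 10000) and 0 in D130 (upper limit 0.117). The median over cells of the 4 summed chondrocyte markers was 0 in the lowest range of each library. It was 0.948 (WT), 8.99 (R76W) and 2.30 (D130) in the highest range, and 0.949 in the third range in WT. The Col2a1 sums of the highest range thus lay well above the median cell. Spp1 (osteopontin) followed no common course, with 62.8 and 13.2 in WT, 98.9 and 12.7 in R76W, but 76.2 and 84.1 in D130. Depth rose along the ranges, with median UMIs of 13932 and 25287 in the lowest and highest range for WT, 22490 and 41689.5 for R76W and 27125 and 38067 for D130, while the median mitochondrial share fell from 3.35% to 2.02%, 3.47% to 2.61% and 3.89% to 2.60%. The part of RNA quality in these courses was not tested. Over osteoblasts of at least 10000 UMIs the mean rho was 0.42 for Sparc, −0.62 for Serpine2, −0.42 for Ibsp and −0.45 for Runx2.

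**Figure D5:**
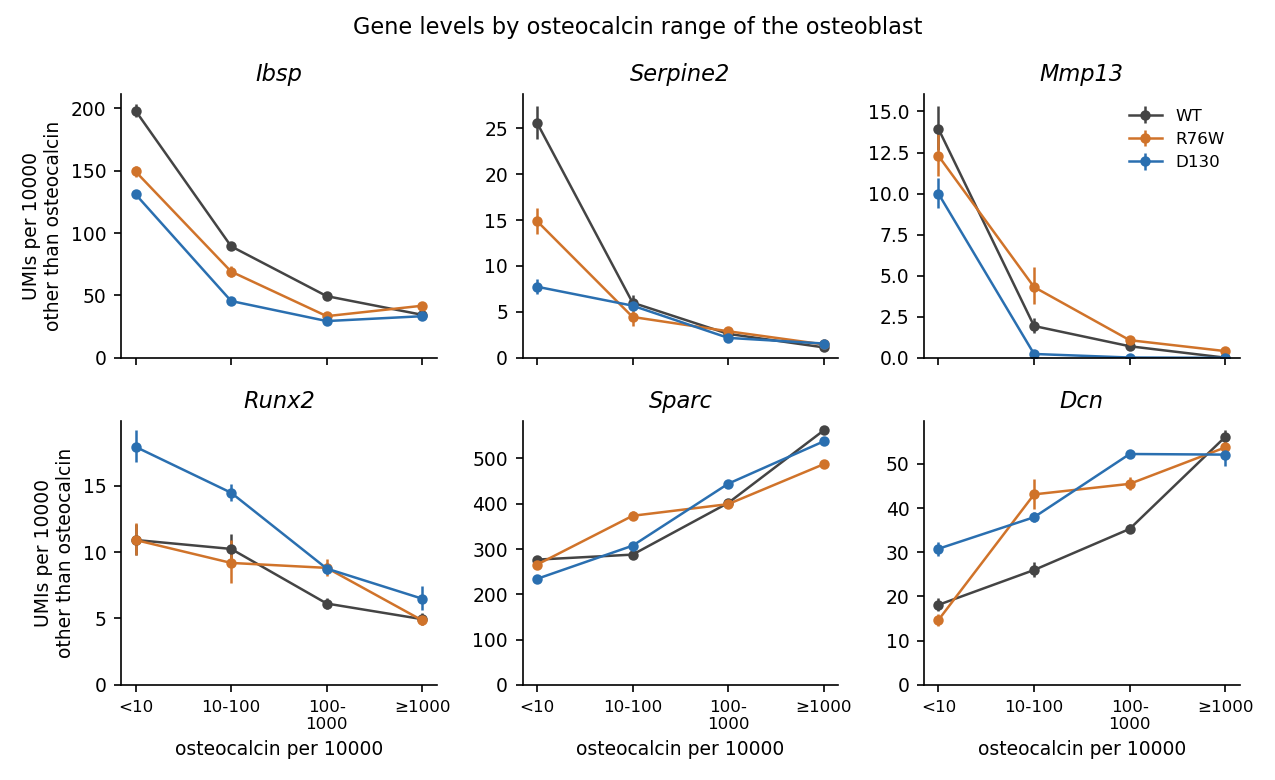
Levels of 6 genes in osteoblasts split by their osteocalcin level (x axis, UMIs per 10000), as UMIs per 10000 other than osteocalcin with 95% Poisson intervals, 1 line per library. Ibsp, Serpine2, Mmp13 and Runx2 are lower, and Sparc and Dcn higher, in the highest than in the lowest range of every library. Ibsp stands at 33.4 in the third and 41.8 in the highest range in R76W.

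The regulators known to act on osteocalcin transcription did not share 1 direction between libraries. Of 21 measured regulators, 4 were at least 1.5 times higher and 4 at least 1.5 times lower in D130 than in WT osteoblasts, where 14.5% and 7.73% of all genes were. Their median was log2 0.26 beside 0.16 over all genes. Runx2 had 606 CPM in WT (580 to 633), 627 in R76W (598 to 656) and 1098 in D130 (1067 to 1129), and was thus highest in the library with least osteocalcin (log2 0.86 against WT). Lef1 (log2 1.75, from 2.62 to 11.2 CPM) and Dlx6 (log2 0.61) were likewise higher in D130. Dlx6 lay near the limit of 1.5 times. With less osteocalcin in the D130 total, all other genes are raised there against WT. The counts of regulators were not repeated without osteocalcin UMIs. The lower members were Junb (399 in WT, 602 in R76W and 180 in D130), Jund (762, 955 and 391), Cebpb (97.5, 82.5 and 40.7) and Cebpd (86.7, 101 and 51.0). Vdr, the vitamin D receptor, differed little, with 74.5, 70.1 and 64.7. In R76W against WT, 2 of 21 regulators were higher, Fosl2 (log2 0.60) and Junb (0.59), and 0 were lower, where 7.41% and 13.6% of all genes were. That count was 0 with the stricter gate, without cells over 1% hemoglobin and with a pseudocount of 10 CPM, and 1 without cells passing more than 1 gate.

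Among the genes whose products modify osteocalcin, the carboxylase was higher in D130 and, to a lesser degree, in R76W than in WT. Of 8 measured genes for vitamin K carboxylation and pro-peptide cleavage, 2 were at least 1.5 times higher in D130 than in WT: the carboxylase Ggcx (21.2 in WT, 32.1 in R76W and 38.9 CPM in D130, log2 0.84) and Calu (171, 204 and 260, log2 0.60), which restrains it. The median of the 8 was log2 0.37, beside 0.16 over all genes, of which 14.5% were higher and 7.73% lower. Of these 8 genes, 0 were lower. In R76W against WT, 0 passed that size in either direction, where 7.41% of all genes were higher and 13.6% lower, and Ggcx had log2 0.57. CPM was taken over all UMIs, and osteocalcin took a larger part of these in WT than in D130. Other genes are thereby raised in D130 against WT. Osteocalcin took a larger part in R76W than in WT, so other genes are lowered in R76W against WT. Calu in D130 and Ggcx in R76W lay near the limit of 1.5 times, and the counts were not repeated without osteocalcin UMIs. The reductase Vkorc1 had 615, 433 and 551, and the protease Furin, which cleaves the pro-peptide, had 35.5, 37.3 and 44.1. Of 4 measured genes for other vitamin K dependent proteins, 2 were at least 1.5 times higher in D130 than in WT and 0 were lower, beside 14.5% and 7.73% of all genes. The 2 were Mgp, which inhibits calcification, with 13.4, 16.9 and 21.9 (log2 0.67 in D130), and Prrg1 (log2 0.80). Gas6 (log2 −0.48) and Pros1 (−0.05) had ratios below 0. Mgp rests on 191 UMIs, found in 6.72%, 12.9% and 14.0% of osteoblasts, and its WT and D130 intervals met (9.80 to 17.9 and 17.8 to 26.8). Of the proposed osteocalcin receptors, Gprc6a and Gpr158 had 1 UMI each and Gpr37 had 25 over all osteoblasts, too few for a comparison. Insr, the insulin receptor, which acts upstream of osteocalcin activation in osteoblasts, had 29.7, 30.04 and 44.4.

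Other bone genes moved in both directions. Between D130 and WT the median log2 ratio was 0.25 for bone matrix, 0.04 for mineralization, 0.10 for osteocyte and −0.11 for stromal and progenitor genes, beside 0.16 for all genes. The shares of all genes to set beside the counts are 14.5% higher and 7.73% lower for D130 against WT, and 7.41% and 13.6% for R76W against WT. Of 25 measured bone matrix genes, 2 were at least 1.5 times higher in D130 than in WT, Fmod (11.3 to 63.8 CPM, log2 2.39) and Serpinh1 (0.66), and 1 was lower, Serpinf1 (log2 −0.87). In R76W against WT, Col11a1 was higher (log2 0.61), and Spp1 (−0.70) and Tnc (−0.84) were lower. The 3 genes counted in each of these comparisons became 1 for R76W and 6 for D130 with the stricter gate, and 1 for R76W without cells over 1% hemoglobin. Serpinh1 lay near the limit of 1.5 times, on a scale that includes osteocalcin and so raises other genes in D130 against WT. Col1a1 differed by log2 −0.04 and Sparc by −0.08 between D130 and WT, beside −1.27 for osteocalcin. Of 19 mineralization genes, 2 were higher and 2 lower in D130 than in WT, and 1 was higher (Alpl, log2 0.62) and 3 lower in R76W than in WT. Among 9 osteocyte genes, 1 was higher in D130 than in WT (Cd44, log2 0.75) and 0 were lower. In R76W against WT, 1 of them was higher, again Cd44 (log2 0.65), and 1 was lower, the scarce Mepe (−0.72). Of 14 stromal and progenitor genes, 4 were lower in D130 than in WT osteoblasts: Cxcl12 (log2 −0.69), Adipoq (−1.29), Ebf3 (−0.97) and Igfbp5 (−1.54). The summed LepR+ stromal markers in osteoblasts were 2.84 UMIs per 10000 in WT, 3.92 in R76W and 1.94 in D130, with medians over cells of 0.273, 0.455 and 0.505, and their part in these 4 genes was not tested.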

How the data were processed

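The authors deposited UMI counts, not normalized, for every gene in every barcode, and the software in the file headers is Cell Ranger 7.0.1. Cell Ranger and Seurat, with build mm10, are named in the submitters' processing notes. Read alignment settings, including the use of intronic reads, are not given in the sources used here. Per the labels' protocols, the marrow was flushed, bone pieces were digested, and red cell lysis came before a sort on CD31, CD45 and Ter119 together with CD51 and PDGFRα.

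Work was done in Python 3.11.15 with numpy 2.4.6, scipy 1.17.1, pandas 2.3.3, matplotlib 3.10.9 and Biopython 1.88. Symbols with several identifiers were summed. Cell limits and the osteoblast gate are given in the text. Other classes were set by summed markers per 10000 UMIs: LepR+ stromal at 50, fibroblast, erythroid (without hemoglobin), neutrophil, monocyte or macrophage and osteoprogenitor at 20, B or T cell at 10 and endothelial at 5. Osteoblasts were assigned first. Neutrophils and monocytes or macrophages were joined as myeloid. Doublets were not called, and cells passing several gates were left out in an alternative.

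Levels are UMIs summed over a class divided by its total. Poisson and Clopper-Pearson intervals are exact, and UMIs are counted molecules. Log2 ratios between libraries for lists used a pseudocount of 1 CPM and genes with at least 30 UMIs. The totals behind these ratios included osteocalcin UMIs, and the lists were not rescaled without them. Genes were named by rule: the 8 highest and 8 lowest mean rho without ribosomal and mitochondrial genes, and the fixed lists. The members and lists were chosen with earlier results of these data known. Sequence comparisons used GENCODE vM21 transcripts and RefSeq promoters. The ratio, correlation and interval steps were tested on simulated data. The values of 1 list gene are not reported here.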

Additional observations from a re-analysis of the deposited data

Results flagged for a closer look

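Barcodes that missed the cell limits entered no comparison, and they also carried osteocalcin. Summed over them, osteocalcin was 18.4 UMIs per 10000 in WT (2981 barcodes, 7529 UMIs), 19.99 in R76W (1527 barcodes, 5572 UMIs) and 14.5 in D130 (2070 barcodes, 5790 UMIs), far above the limit of 0.0108 or less that a count of 0 allows. At least 100 UMIs per 10000 were found in 136 WT, 107 R76W and 26 D130 of these barcodes, of which 113, 102 and 23 were over the mitochondrial limit. Bglap2 took 24.7%, 30.1% and 26.1% of their Bglap and Bglap2 UMIs, near the shares of the osteoblasts of the same library. Bglap3 took 1.29% in WT (1.05 to 1.57), 1.33% in R76W (1.04 to 1.66) and 1.71% in D130 (1.39 to 2.08). The R76W value rests on 74 UMIs over 37 barcodes, at most 7 in 1 barcode, and its interval lies above the 0.402% of the R76W osteoblasts.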

How the results depend on the processing

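No paired analysis was possible because each genotype had 1 library, which also leaves no replicate to drop. Over the alternatives, 89 values moved beyond their counting interval or spread, the others stayed within it, and 0 changed sign. Levels thinned to 1000 UMIs are the same quantity as means over cells, and both were counted. In every alternative D130 osteoblasts had least osteocalcin and R76W osteoblasts most. Alternatives for the Bglap3 share and the share of cells at or above 1000 UMIs per 10000, leaving out the top cell of a class, limits on osteoblast depth, and the other scaling of correlated genes were chosen after seeing the data. The cause of each move was not tested. Counting intervals are narrow at these depths, so small moves pass them, and they say nothing of the spread between mice.

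With a looser gate (50 Col1a1 and 2 Ibsp UMIs per 10000) osteocalcin per 10000 was 1170 in R76W and 369 in D130, the log2 ratios were 0.32 (R76W to WT), −1.35 (D130 to WT) and −1.67 (D130 to R76W), and the rho of Sparc was 0.51. With a stricter gate (200 and 10) the levels were 980 (WT), 1159 (R76W) and 401 (D130), the ratios were 0.24, −1.29 and −1.53, the Bglap2 share in D130 was 27.2%, the rho of Runx2 was −0.38, and WT erythroid cells stood at 1.56. With at least 2000 UMIs per cell R76W was at 1187 and the rho of Runx2 was −0.47. With at most 5% mitochondrial UMIs the levels were 957, 1218 and 415 and the ratios 0.35, −1.21 and −1.55. Without cells over 1% hemoglobin WT was at 978, the R76W to WT and D130 to WT ratios were 0.28 and −1.32, and the Bglap2 share in R76W was 30.1%. Without cells passing more than 1 gate the levels were 1001, 1201 and 397, the 2 ratios to WT were 0.26 and −1.33, the Bglap2 share in R76W was 30.1% and the rho of Runx2 was −0.48.

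With osteocalcin left out of the denominator the levels were 1038, 1341 and 407, the ratios 0.37, −1.35 and −1.72, and the rho of Sparc and Runx2 0.59 and −0.35. As means over cells the osteoblast levels were 852, 989 and 352 and the ratios 0.22, −1.28 and −1.49. The Bglap2 shares were then 27.7%, 33.2% and 30.2% and the Bglap3 shares 1.33%, 0.446% and 2.12%. In other classes, means over cells were 0.824 in WT and 0.360 in D130 for LepR+ cells, and 0.609, 0.291 and 0.256 for erythroid cells. For myeloid cells they were 0.371 in WT and 0.332 in D130. The level given for thinning to 1000 UMIs equals the mean over cells by the way it was calculated. Thinning therefore gave no separate check of these levels. With doubled class limits WT myeloid cells were at 0.393 and R76W LepR+ cells at 0.478. Without the top cell LepR+ cells were at 0.584 in WT and 0.385 in R76W, and erythroid cells at 0.236 in WT and 0.159 in R76W. Over osteoblasts of 10000 to 50000 UMIs the levels were 1001, 1133 and 346 and the ratios 0.18, −1.53 and −1.71, and over those of at least 10000 UMIs the rho of Runx2 was −0.45. As a Pearson correlation of log2 levels it was −0.36.

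Some counts of list genes at least 1.5 times higher or lower moved as well. With the stricter gate the bone matrix count was 1 for R76W and 6 for D130 against WT, beside 3 and 3, and the regulator count for R76W was 0, beside 2. Without cells over 1% hemoglobin the R76W counts were 1 (matrix) and 0 (regulators), without cells passing more than 1 gate the regulator count was 1, and with a pseudocount of 10 CPM it was 0.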
